A study of Homo sapiens with 9 samples.

Results

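The long arm of chromosome 14 carries a run of genes whose transcripts were less abundant in both clones that overexpress NCBP2 than in the empty-vector clones. Its members were chosen as the protein-coding GENCODE genes on chromosome 14 (GRCh38) that start between 67290000 and 79870000 and have a mean of at least 4 CPM (counts divided by the library's total and scaled to a common total) over the 9 libraries, leaving out COX16 and SRSF5. This gave 79 genes out of 60609 listed in the tables, and out of 116 protein-coding genes that start in the window of 12.58 Mb, of which 35 lay under 4 CPM. The window and the 2 exceptions were chosen on these same libraries, so the lower level in the clones is what selected the members and is described here with no test. RNA sequencing was done on U2-OS, an established human osteosarcoma cell line. Clone A1 and clone A4, both made to overexpress NCBP2, gave 3 libraries each (lettered A to C). The other 3 libraries came from 3 different clones made in the same way with an empty vector, 1 library each. Vector replicates C, A and B are thus separate clones, vector 1, 2 and 3 of the labels. The NCBP2 arm therefore rests on 2 clones, and what belongs to NCBP2 and what belongs to the clones themselves cannot be told apart. The labels do not say whether the 3 libraries of a clone were separate cultures, so any spread within a clone may be technical.

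NCBP2 contacts the cap within the nuclear cap-binding complex, which holds the 5′ cap of new RNA polymerase II transcripts and hands them to splicing, 3′-end processing and export. The members were grouped by their place on the chromosome and not by a pathway. They include lysosomal and Golgi proteins, mitochondrial enzymes, subunits of translation factors, matrix proteins and the transcription factor FOS.

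Counts in genes ranged from 29234022 to 50554080 per library. NCBP2 itself, given first as the check of the labels, measured 299 to 348 CPM in clone A1, 456 to 1035 CPM in clone A4 and 90.6 to 98.4 CPM in vector, with no overlap between the groups. The osteoblast-lineage genes RUNX2, SPARC and COL1A1 were present in every library, while IBSP was at 0 and COL1A2 was at or near 0. The haematopoietic markers PTPRC, CD3E, SPI1 and ITGAM summed to at most 2.04 CPM in any library, and the epithelial ones (EPCAM, CDH1, KRT5, KRT14, CLDN4) to between 7.14 and 12.6 CPM. U2-OS is known to keep its telomeres without telomerase, and telomerase RNA (TERC) and TERT were at 0 in all 9 libraries. Clone A1 replicate A stood apart. It held the lowest value of the 9 libraries for 34.6% of all genes tested and the highest for 23.3%.

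In the segment as a whole, the members summed to 7235 ± 189 CPM (SD, n = 3) in clone A1, 7248 ± 595 CPM in clone A4 and 9085 ± 186 CPM in vector. The SD is between libraries of a single clone for A1 and A4 and between 3 clones for vector. In bulk RNA, fewer cells that express a gene and less RNA per cell cannot be told apart. For each library, the median was taken over members of the log2 CPM minus the gene's own mean over the 9 libraries. In the order of replicates A, B, C, this median was -0.17, -0.07 and -0.05 for clone A1, -0.12, 0.03 and -0.14 for clone A4, and 0.23, 0.28 and 0.17 for vector. Values below keep that order, and A1 and A4 stand for the clones. Every clone library lay below every vector library, and clone A4 replicate B was the nearest to them. The same median over the other 289 protein-coding genes of chromosome 14 at or above 4 CPM ran from -0.07 to 0.10, with clone A1 replicate A the highest. Of the 79 members, 30 had their lowest value in clone A1 replicate A, the lowest library for 34.6% of all genes tested. Another 19 had it in clone A4 replicate C, where 12.1% of all genes tested did. The highest value lay in vector for most of them, namely 21 in replicate A, 29 in replicate B and 17 in replicate C. Over all genes tested these shares were 7.65%, 12.9% and 8.41%.

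**Figure D1:**
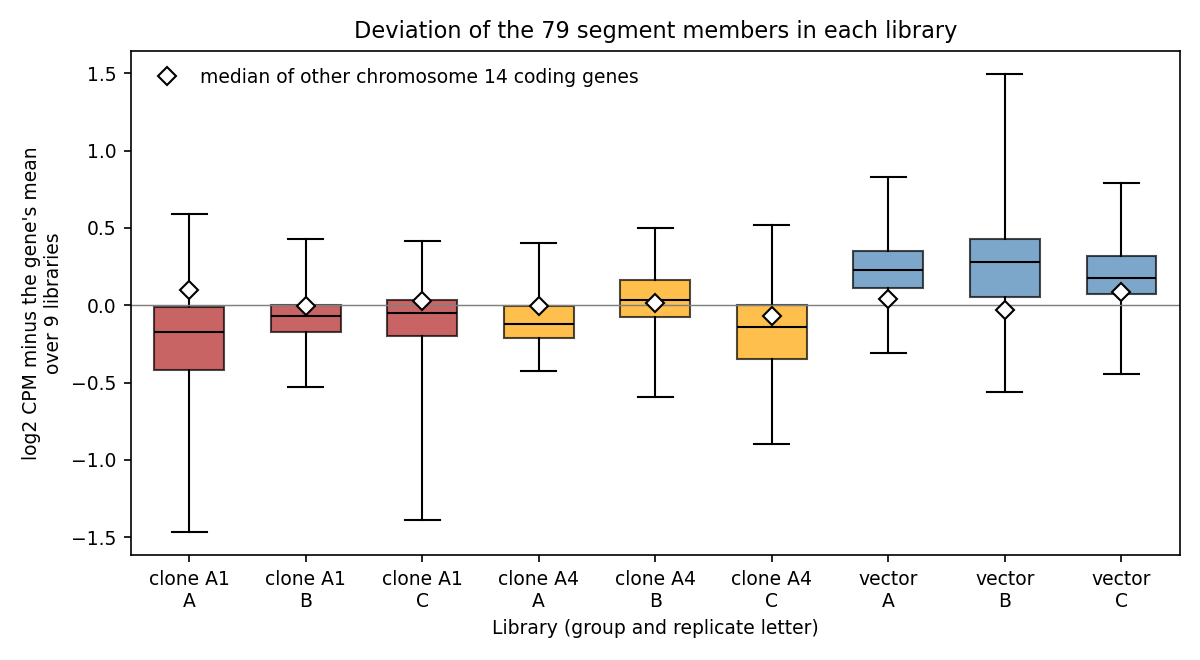
Deviation of the 79 members in each library, as log2 CPM minus the gene's mean over the 9 libraries, with boxes for the quartiles, a line for the median and whiskers to the lowest and highest member. The white diamonds are medians of the other 289 chromosome 14 coding genes at or above 4 CPM. The 3 vector boxes have medians of 0.17 to 0.28 and the 6 clone boxes medians of -0.17 to 0.03.

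Gene by gene, the fitted log2 fold change against vector was below 0 for 71 of 79 members in clone A1, where 51.6% of all 21682 genes tested were below 0. It was below 0 for 75 of 79 in clone A4, against 46.4% of all genes tested. The median member stood at 80.3% of vector in clone A1 (median log2 fold change -0.32, quartiles -0.50 and -0.21, and a median of -0.29 without clone A1 replicate A) and at 82.1% in clone A4 (median -0.28, quartiles -0.42 and -0.16). The medians over all genes tested were -0.02 and 0.03. Both comparisons use the same 3 vector libraries, so the values of the 2 clones are set side by side and not counted as independent. All 3 clone A1 libraries lay below all 3 vector libraries for 43 members, a separation that 8.06% of all genes tested showed. For clone A4 the number was 28, with 5.86% of all genes tested. It was 46 without clone A4 replicate B and 40 without vector replicate B. Separation is easier to reach with a library fewer in a group, and no share over all genes was taken for either reduced set. Both clones lay wholly below vector for 25 members, where all genes tested gave 2.26%. No member had clone A1 (6.18% of all genes) or clone A4 (6.2%) wholly above vector.

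Calls for single members differed by tool. With edgeR's quasi-likelihood test and Benjamini-Hochberg adjustment over all genes, 0 of 79 members passed an adjusted p of 0.05 in clone A1 (0.0646% of all genes tested passed) and 0 of 79 in clone A4 (0.115%). The smallest adjusted p among members was 0.105 in clone A1, for LTBP2, and 0.221 in clone A4, for ARG2. At an unadjusted p under 0.05, 25 members were lower in clone A1 (4.27% of all genes tested) and 19 in clone A4 (2.75%), and none was higher in either. The clone A4 count came to 10 without clone A4 replicate A, 12 without clone A4 replicate C and 11 without vector replicate A. DESeq2 passed 5 members in clone A1 (VTI1B, NPC2, LTBP2, TMED10 and IRF2BPL, all lower, where 0.877% of genes passed as lower) and ARG2 alone in clone A4 (0.633%). With the 2 clones taken as 1 group of 6 libraries, edgeR passed 0 members (0.0184% of genes), 29 were lower at an unadjusted p under 0.05 (2.96%; 19 with counts summed per clone, since the 6 libraries come from 2 clones), and DESeq2 passed VTI1B alone (0.301%). These counts repeat the contrast that chose the members and add no support to it. The standard error of a member's log2 fold change had a median of 0.20, so a member near the segment median was not distinguishable from no difference on its own.

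**Figure D2:**
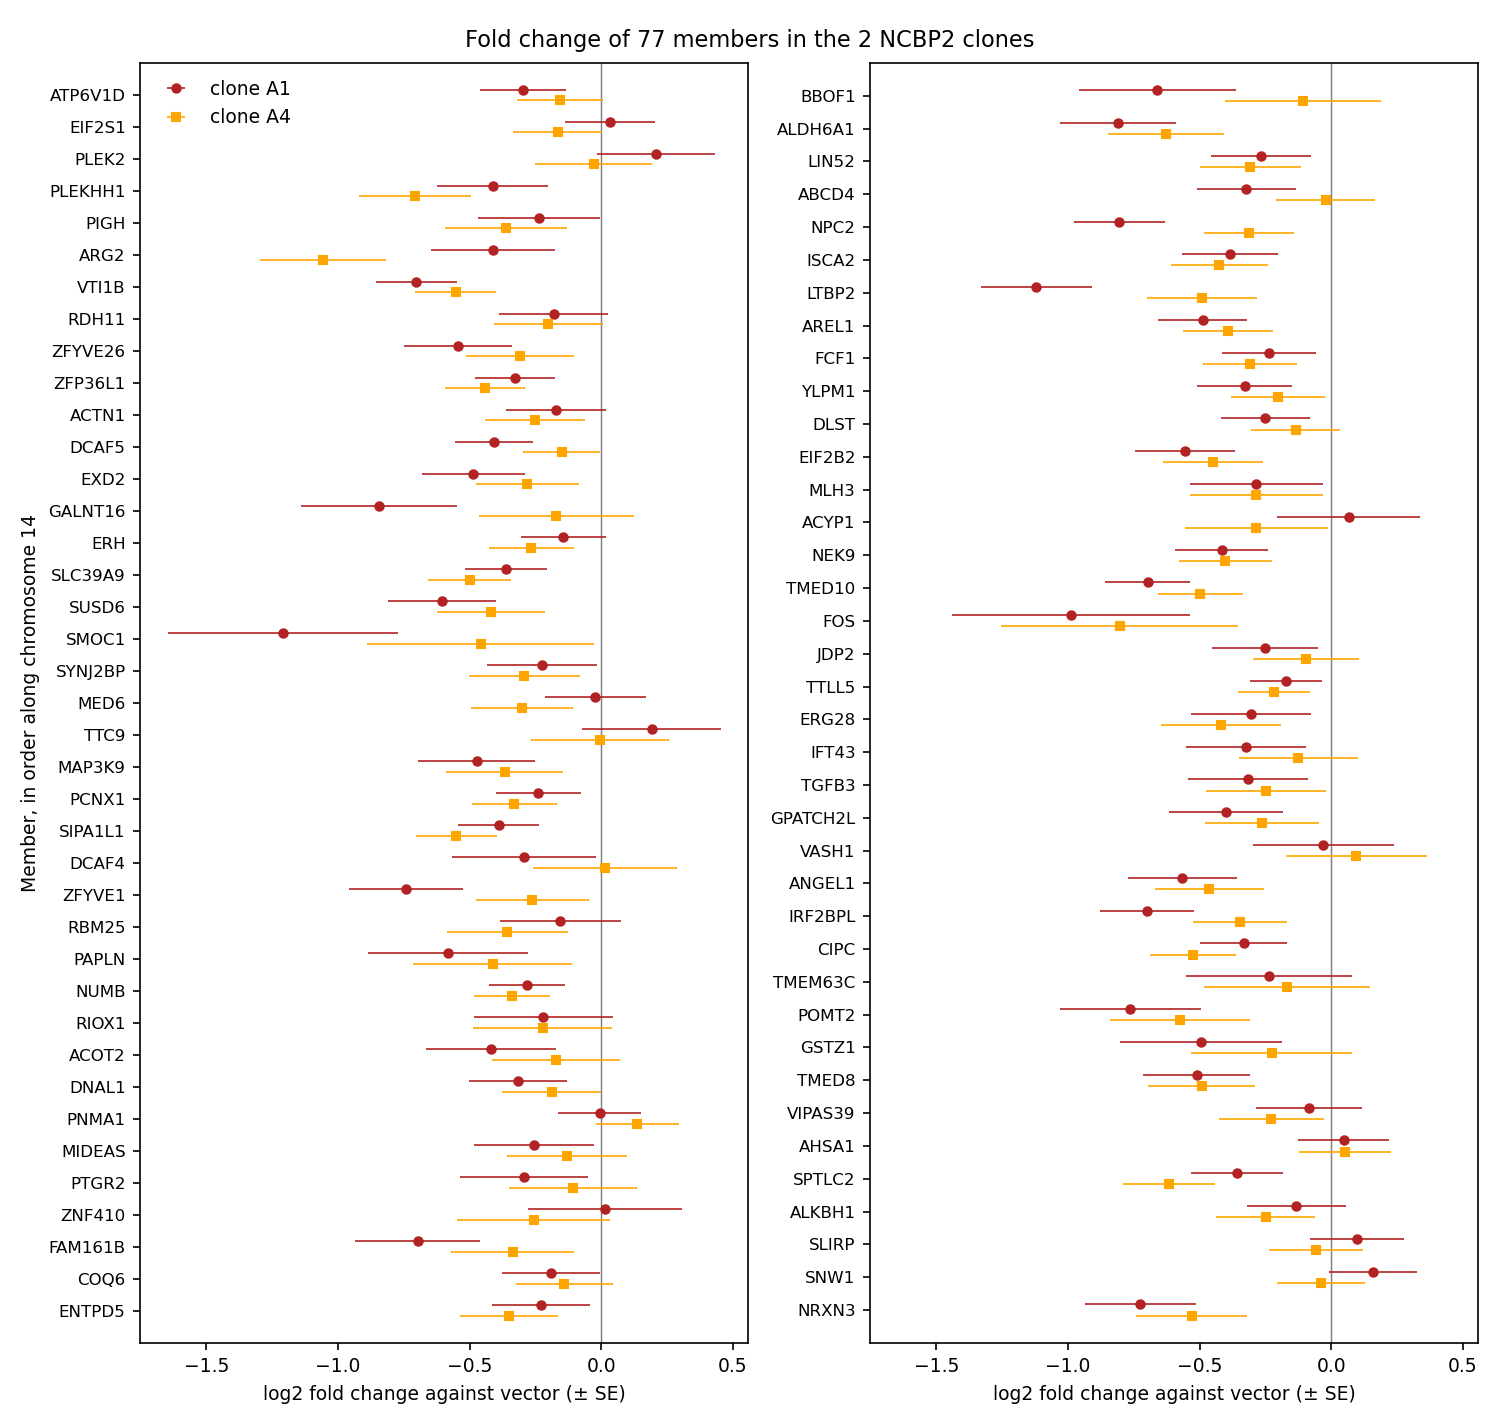
Log2 fold change of 77 of the 79 members against vector in clone A1 (circles) and clone A4 (squares) with standard errors, in order along the chromosome. Most points lie left of 0, where 71 of all 79 members lay in clone A1 and 75 in clone A4, and LTBP2, SMOC1, ARG2 and FOS reach furthest.

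Along the chromosome the lower level had a similar size throughout. With the members split by position into 4 groups of 19 or 20, the median log2 fold change of clone A1 was -0.34, -0.27, -0.36 and -0.32 from the first group to the last. In clone A4 it was -0.29, -0.24, -0.31 and -0.25. The groups held 10 of 20, 10 of 20, 14 of 20 and 9 of 19 members with clone A1 wholly below vector, and 8, 4, 7 and 9 with clone A4 wholly below. Over all genes tested the shares were 8.06% and 5.86%. In the 10 Mb before the window, 45 coding genes at or above 4 CPM had medians of 0.06 in clone A1 and 0.01 in clone A4. Of these 45, 1 lay wholly below vector in clone A1 and 3 in clone A4. In the 10 Mb after the window, 13 such genes had medians of 0.00 and -0.03, and 1 and 0 of them lay wholly below vector. Over all 289 other chromosome 14 coding genes the medians were 0.01 and -0.03.

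**Figure D3:**
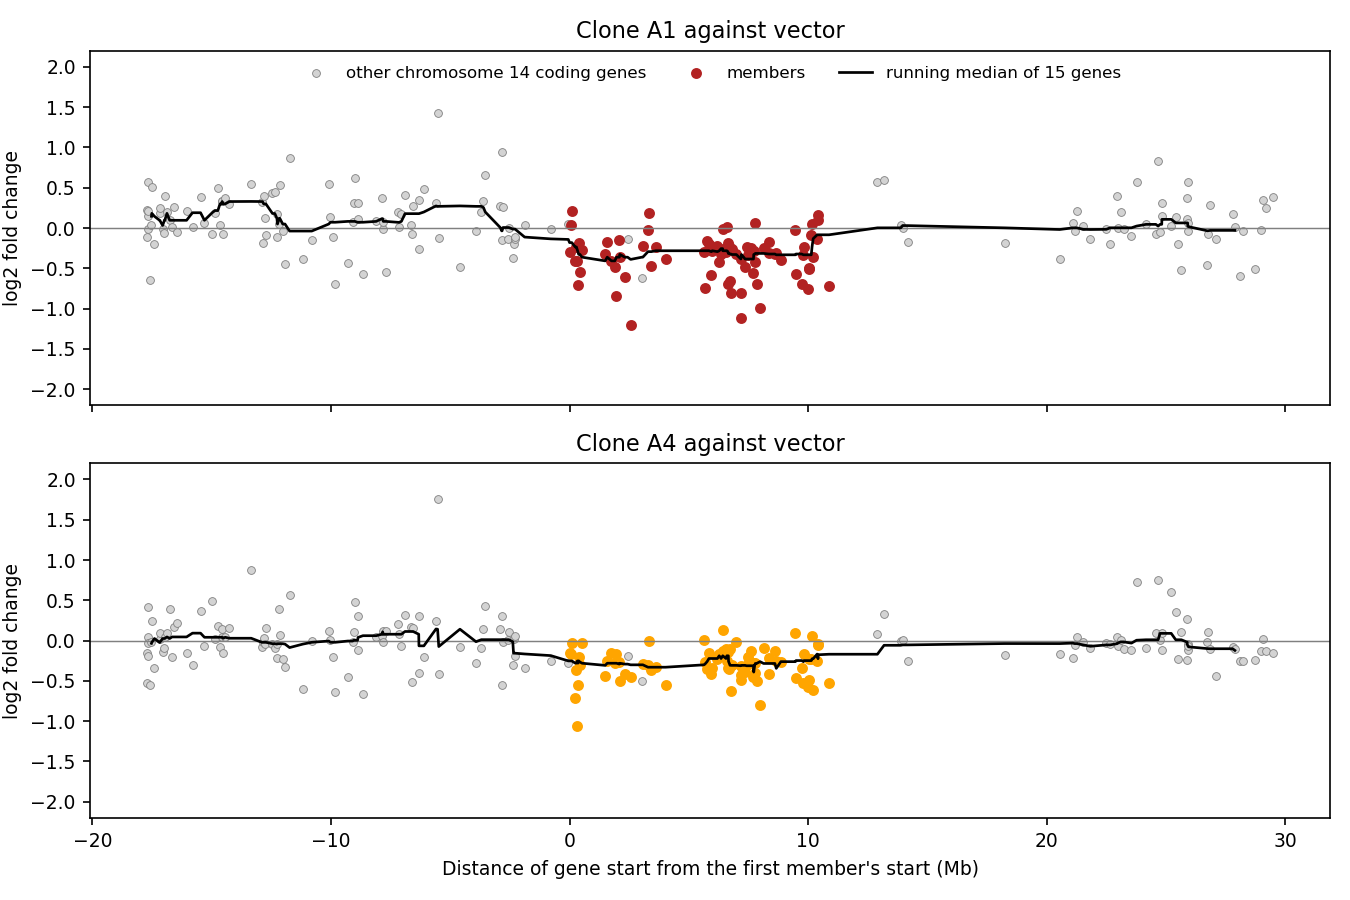
Log2 fold change of chromosome 14 coding genes at or above 4 CPM by distance from the first member's start, for clone A1 (top) and clone A4 (bottom), with the running median of 15 genes in black. Members are coloured. The median over members is -0.32 in clone A1 and -0.28 in clone A4, against 0.01 and -0.03 over the other chromosome 14 coding genes.

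Genes on either side of the window's edges were described next, with values for each clone. The last 4 genes before it, MAX, FUT8, GPHN and PALS1, had log2 fold changes of -0.11, 0.04, -0.01 and 0.06 in clone A1. In clone A4 they were -0.19, -0.34, -0.25 and -0.28, so that FUT8, GPHN and PALS1 lay near the segment median of that clone. GPHN, the scaffold protein of inhibitory synapses that also makes molybdenum cofactor, measured 63.2, 57.5 and 57.3 CPM in A1, 52.5, 46.4 and 51.9 in A4, and 59.9, 60.8 and 58.9 in vector. Clone A4 lay wholly below vector for GPHN and for FUT8, the fucosyltransferase of N-glycan cores, and clone A1 overlapped vector for both. For FUT8, GPHN and PALS1 clone A4 also lay wholly below clone A1. The clone A4 minus clone A1 difference was -0.38 ± 0.18 (SE) for FUT8, -0.24 ± 0.15 for GPHN and -0.34 ± 0.22 for PALS1, and none of the 3 passed edgeR's adjusted threshold. At the start of the window, ATP6V1D (-0.30 in clone A1, -0.16 in clone A4), EIF2S1 (0.03, -0.17) and PLEK2 (0.21, -0.03) included values near and above 0. At the far end, SLIRP (0.10, -0.06) and SNW1 (0.16, -0.04) lay near 0 and NRXN3 (-0.73, -0.53), the last member, was low. The first 4 genes after the window were DIO2 (0.57, 0.08), CEP128 (0.59, 0.34), GTF2A1 (0.03, -0.01) and STON2 (0.00, 0.00).

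The level threshold and the exceptions also had neighbours. FOS, PAPLN and TMEM63C were the members with the lowest mean level, and ACOT4, PGF and ADCK1 lay just under it. ACOT4 had log2 fold changes of 0.02 and 0.01 in clones A1 and A4, PGF -0.74 and -0.11, and ADCK1 0.12 and 0.18. COX16, a mitochondrial assembly factor that the rule leaves out, measured 2.11, 4.30 and 4.37 CPM in A1, 3.04, 5.05 and 3.67 in A4, and 5.57, 4.90 and 6.17 in vector. Its log2 fold changes of -0.62 ± 0.35 and -0.50 ± 0.35 lay on the same side as most members. SRSF5, a splicing factor also left out, measured 337, 287 and 288 CPM in A1, 338, 338 and 200.2 in A4, and 356, 289 and 360.4 in vector, and its groups overlapped. The 20 tested coding genes of the window under 4 CPM had medians of -0.06 and -0.11. The 52 tested noncoding and pseudogene entries had medians of -0.11 and -0.15. Only 3 of these entries reached 4 CPM, the long noncoding RNAs MAP3K9-DT, JDP2-AS1 and ENSG00000259033. MAP3K9-DT lay wholly above vector in clone A1 (13.5, 11.9 and 10.6 CPM against 8.90, 8.37 and 8.73), and the other 2 overlapped vector in both clones.

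Vesicle, lysosome and membrane traffic genes had the lowest median of the larger role groups in clone A1. These 11 members had medians of -0.51 in clone A1 and -0.31 in clone A4, with 10 and 11 of them below 0, and 5 were wholly below vector in both clones. Over all genes tested 2.26% were, a share that also stands beside such counts of the role groups below. VTI1B (chr14:67647085-67674820, minus strand), a SNARE protein of late endosomes and the Golgi, measured 110.2, 113 and 131 CPM in A1, 129, 144 and 121 in A4, and 197, 174 and 207 in vector. All 6 clone libraries lay below all 3 vector libraries. VTI1B stood at 61.4% of vector in clone A1 (-0.70 ± 0.15, SE) and 68.2% in clone A4 (-0.55 ± 0.15). TMED10 (chr14:75131469-75176612, minus strand), a p24 cargo receptor that cycles between endoplasmic reticulum and Golgi, measured 322, 299.96 and 327 CPM in A1, 361, 434 and 295 in A4, and 541, 471 and 526 in vector. Both clones lay wholly below vector for TMED10 too, with clone A4 replicate B the closest to it, and the 2 clones overlapped each other. It stood at 61.7% of vector in clone A1 and 70.8% in clone A4. NPC2 (chr14:74476192-74494177, minus strand), the soluble lysosomal protein that carries cholesterol to NPC1, measured 72.8, 82.1 and 92.2 CPM in A1, 97.7, 119.8 and 130.3 in A4, and 142, 162 and 128 in vector. Clone A1 was lowest and wholly separate, and clone A4 overlapped vector through its replicate C. VTI1B was singled out after its values were seen.

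The rest of this group ranged from well below vector to no lower than it. PLEKHH1, a pleckstrin-homology protein, stood at 75.2% of vector in clone A1 and 61.2% in clone A4, with both clones below vector in every library. TMED8, a relative of the p24 proteins, stood at 70.2% and 71.1%. ZFYVE26, a lysosome-reformation protein, stood at 68.5% and 80.8%, and ZFYVE1, which marks sites of autophagosome formation, at 59.7% and 83.4%. PCNX1, a large membrane protein, stood at 84.7% and 79.5% with overlap in vector replicate B (313 CPM). PLEK2, which binds phosphoinositides at actin-rich membrane, measured 18.5, 23.2 and 27.4 CPM in A1, 20.9, 18.5 and 19.3 in A4, and 17.4, 24.6 and 17.8 in vector. The groups overlapped for PLEK2, and neither clone was below vector in every library.

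Signalling, adhesion and matrix genes held the 2 largest differences of clone A1, those of SMOC1 and LTBP2. These 12 members had medians of -0.43 in clone A1 and -0.39 in clone A4, and 5 lay wholly below vector in both clones. LTBP2 (chr14:74498183-74612378, minus strand), an extracellular protein of elastic microfibrils, measured 93.0, 146 and 122 CPM in A1, 150.5, 177 and 231 in A4, and 254, 299 and 230.5 in vector. Clone A1 was wholly below both other groups, and the highest clone A4 library just touched the lowest vector library. LTBP2 stood at 46.0% of vector in clone A1 (-1.12 ± 0.21) and 71.2% in clone A4 (-0.49 ± 0.21). SMOC1, a secreted calcium-binding matrix protein, measured 12.5, 14.8 and 6.18 CPM in A1, 17.8, 23.0 and 15.5 in A4, and 17.9, 45.9 and 13.3 in vector. The vector libraries of SMOC1 spread more than the groups differed. Its log2 fold change in clone A4 was -0.46 ± 0.43 and turned to 0.26 without vector replicate B. In clone A1 it was -1.21 ± 0.44 and came to -0.49 without that library.

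Among the other members of this group, NRXN3, a synaptic adhesion protein, measured 27.2, 20.8 and 25.4 CPM in A1, 27.2, 26.8 and 30.01 in A4, and 33.9, 35.6 and 51.8 in vector, with no overlap. SIPA1L1, a Rap GTPase-activating protein, stood at 76.3% and 68.2% of vector and NUMB, the Notch-pathway adaptor, at 82.2% and 79.03%, both without overlap. SUSD6 (65.7% and 74.8%) and the kinase MAP3K9 (72.0% and 77.5%) were also below vector in every clone library. ACTN1, an actin cross-linker, overlapped vector in both clones, at 88.7% and 84.0%. TGFB3, a growth factor ligand, stood at 80.4% and 84.2% with overlap.

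**Figure D4:**
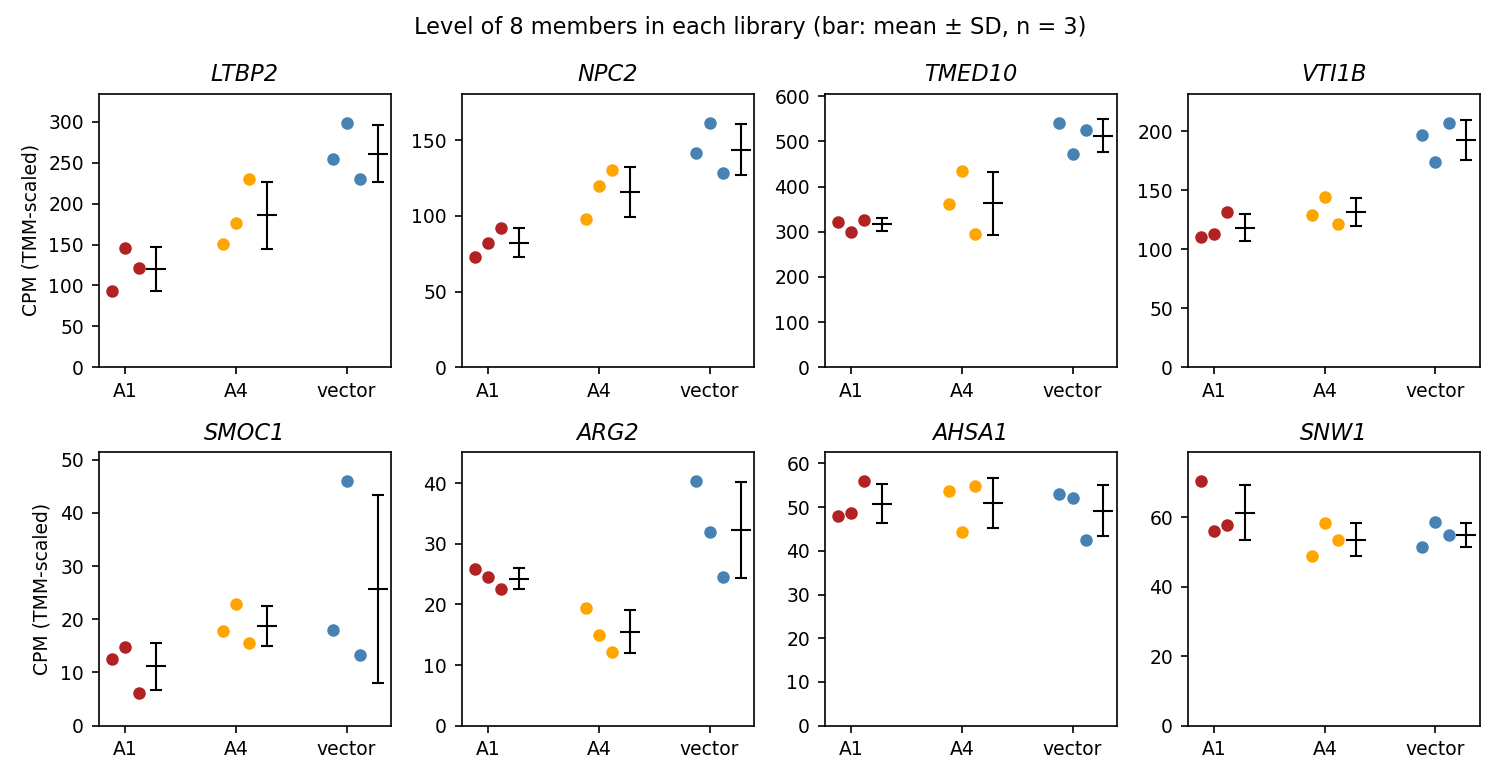
Level in CPM of 8 members in each library of clone A1, clone A4 and vector, with mean ± SD (n = 3) beside the points and axes that start at 0. The SD is between libraries of a single clone for A1 and A4 and between 3 clones for vector. VTI1B and TMED10 are separated from vector in both clones, LTBP2 and NPC2 in clone A1 and ARG2 in clone A4, and AHSA1 and SNW1 overlap in every group.

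The promoters of VTI1B, NPC2, TMED10 and LTBP2 are shown because these 4 had the smallest unadjusted p in clone A1 of all members. Each is the 250 bases before the start of the gene in RefSeq (GRCh38.p14, minus strand), read 5′ to 3′. They lie at chr14:67674633-67674882 for VTI1B, chr14:74493513-74493762 for NPC2, chr14:75176613-75176862 for TMED10 and chr14:74612238-74612487 for LTBP2. The GENCODE starts of VTI1B, NPC2 and LTBP2 differ from the RefSeq ones, and that of TMED10 is the same. By GENCODE the bases shown for NPC2 lie wholly inside the gene and those for VTI1B and LTBP2 mostly so, while those for TMED10 lie outside it. Capitals mark the ETS core CCGGAA or its reverse complement TTCCGG, and the CCAAT box or its reverse ATTGG.
VTI1B: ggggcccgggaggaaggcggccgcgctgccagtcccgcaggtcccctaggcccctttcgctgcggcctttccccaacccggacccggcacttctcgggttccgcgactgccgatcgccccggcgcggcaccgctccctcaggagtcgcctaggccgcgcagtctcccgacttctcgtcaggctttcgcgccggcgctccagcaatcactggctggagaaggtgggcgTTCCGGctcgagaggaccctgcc
NPC2: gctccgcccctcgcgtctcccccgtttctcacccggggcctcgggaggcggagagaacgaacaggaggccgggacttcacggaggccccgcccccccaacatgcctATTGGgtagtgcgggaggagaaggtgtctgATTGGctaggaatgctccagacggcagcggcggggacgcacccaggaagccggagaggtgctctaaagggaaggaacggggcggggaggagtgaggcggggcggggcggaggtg
TMED10: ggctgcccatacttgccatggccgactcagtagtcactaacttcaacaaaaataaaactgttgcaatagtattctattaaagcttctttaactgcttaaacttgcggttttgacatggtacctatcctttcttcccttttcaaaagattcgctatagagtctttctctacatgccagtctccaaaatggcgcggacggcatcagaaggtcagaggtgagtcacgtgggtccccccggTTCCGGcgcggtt
LTBP2: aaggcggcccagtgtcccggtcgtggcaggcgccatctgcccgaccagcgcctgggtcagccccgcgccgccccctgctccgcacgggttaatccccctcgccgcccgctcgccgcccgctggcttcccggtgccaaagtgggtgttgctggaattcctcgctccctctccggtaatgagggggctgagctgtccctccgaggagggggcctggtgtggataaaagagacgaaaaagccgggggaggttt
VTI1B and TMED10 each hold 1 ETS core, NPC2 holds 2 CCAAT boxes and LTBP2 holds neither motif in these bases. GC content was 72.4% for VTI1B, 69.2% for NPC2, 46.4% for TMED10 and 68.8% for LTBP2.

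Motifs were counted over windows of 300 bases, from 250 before to 50 after each RefSeq start, for the 72 members that have an entry. Those without a match included ANGEL1, MED6, PIGH, PLEKHH1, PNMA1 and RIOX1. The ETS core stood in 26 of 72 member windows (36.1%), in 17.6% of all 27305 promoters and in 22.8% of the 15842 protein-coding ones. The CCAAT box stood in 33.3% of members, 35.7% of all promoters and 36.4% of coding ones, and the E-box CACGTG in 8.33%, 7.44% and 8.88% in the same order. The AP-1 site TGANTCA, the site bound by FOS with JUN proteins, stood in 5.56%, 7.76% and 5.75%. The cAMP response element TGACGTCA stood in 4.17%, 1.98% and 2.59%, and TATAAA in 5.56%, 11.95% and 9.63%. Both strands were searched, and none of these motifs contains another. Median GC was 63.8% in members, 58.3% in all promoters and 62.7% in coding ones. These are descriptions of letters, and no binding was measured.

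Mitochondrial and metabolic genes made the largest role group, with 17 members. Their medians were -0.32 in clone A1 and -0.28 in clone A4, with 16 and 17 below 0 and 4 wholly below vector in both. ARG2 (chr14:67619920-67651708, plus strand), the mitochondrial arginase, measured 25.8, 24.5 and 22.5 CPM in A1, 19.4, 15.01 and 12.2 in A4, and 40.3, 32.0 and 24.6 in vector. Clone A4 lay below both other groups in every library, and clone A1 overlapped vector through vector replicate C. ARG2 stood at 48.1% of vector in clone A4 (-1.06 ± 0.24) and 75.2% in clone A1 (-0.41 ± 0.24). ALDH6A1, a dehydrogenase of valine and pyrimidine breakdown, measured 71.8, 54.0 and 49.3 CPM in A1, 63.4, 83.7 and 51.2 in A4, and 119, 101 and 87.1 in vector. Its clone libraries all lay below vector, at 57.1% and 64.7%.

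SPTLC2, a catalytic subunit of serine palmitoyltransferase, the first enzyme of sphingolipid synthesis, measured 85.8, 76.1 and 78.7 CPM in A1, 62.5, 82.4 and 56.0 in A4, and 96.4, 105 and 107 in vector. No clone library reached vector. POMT2, an O-mannosyltransferase of the endoplasmic reticulum, stood at 59.0% and 67.1% of vector and ISCA2, a mitochondrial iron-sulphur cluster protein, at 76.6% and 74.5%, both without overlap. GALNT16, a Golgi glycosyltransferase, measured 15.8, 37.0 and 31.6 CPM in A1, 36.1, 43.2 and 55.5 in A4, and 47.7, 62.6 and 41.5 in vector. Clone A1 lay wholly below vector for GALNT16, at -0.84 ± 0.30 (-0.55 without clone A1 replicate A), and clone A4 overlapped it. DLST, the succinyltransferase of the 2-oxoglutarate dehydrogenase complex, stood at 84.1% and 91.1%, RDH11, a retinal reductase, at 88.2% and 87.0%, and SYNJ2BP, an outer mitochondrial membrane protein, at 85.5% and 81.7%, all with overlap. ACYP1, an acylphosphatase, was at 105% in clone A1 and 82.1% in clone A4, also with overlap.

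RNA processing and translation genes numbered 10, with medians of -0.28 in both clones and 3 members wholly below vector in both. ZFP36L1, which binds AU-rich elements and promotes mRNA decay, measured 635, 586 and 653 CPM in A1, 486, 668 and 576 in A4, and 716, 801 and 834 in vector, with no overlap. EIF2B2, a subunit of the exchange factor for eIF2, measured 38.9, 44.6 and 45.8 CPM in A1, 49.6, 49.6 and 39.97 in A4, and 67.2, 72.8 and 49.8 in vector. Its clone A4 libraries reached almost to vector replicate C. EIF2S1, the alpha subunit of eIF2, measured 509, 446 and 526 CPM in A1, 436, 500.4 and 353 in A4, and 538, 406 and 504 in vector, and the groups overlapped. SLIRP, which binds mitochondrial mRNAs, measured 34.9, 32.3 and 36.5 CPM in A1, 26.2, 34.5 and 32.5 in A4, and 32.3, 30.7 and 33.9 in vector. RBM25, a splicing regulator (89.7% and 78.1%), overlapped vector in both clones, and YLPM1 (79.6% and 87.0%) lay wholly below vector in clone A1 and overlapped it in clone A4.

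Transcription and chromatin genes numbered 9, with medians of -0.26 and -0.30 and 3 members wholly below vector in both clones. FOS, the immediate-early AP-1 subunit, was low throughout. It measured 1.3, 3.87 and 3.79 CPM in A1, 3.82, 3.09 and 3.31 in A4, and 4.46, 9.43 and 3.95 in vector. The lowest vector library exceeded the highest clone library by under 0.1 CPM, and vector replicate B set most of the difference in means. Its log2 fold change in clone A1 was -0.99 ± 0.45 and came to -0.48 without vector replicate B and to -0.63 without clone A1 replicate A. In clone A4 it was -0.80 ± 0.45 and came to -0.31 without vector replicate B. IRF2BPL, a RING-type protein named because DESeq2 passed it, measured 56.7, 73.3 and 60.6 CPM in A1, 74.0, 89.1 and 80.6 in A4, and 94.6, 123 and 92.3 in vector. The 3 groups did not overlap for IRF2BPL, in the order clone A1, clone A4, vector. MED6, a Mediator subunit, and SNW1, a transcription and splicing cofactor, overlapped vector in both clones, at 98.4% and 81.2% and at 112% and 97.5%. JDP2, an AP-1 repressor, stood at 84.1% and 93.6%, and CIPC, an inhibitor of CLOCK, at 79.4% and 69.5%.

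Genome maintenance and cell division genes numbered 6, with medians of -0.28 and -0.27. ERH, a small conserved nuclear protein, had the highest level per length of all members (311 CPM per kilobase of exon), and ZFP36L1 the next (102 CPM per kilobase). ERH measured 320.4, 305 and 403 CPM in A1, 307, 357 and 281 in A4, and 392, 348 and 397 in vector, with overlap in both. MLH3, a mismatch repair protein, stood at 82.1% in each clone, with vector replicate B its lowest vector library. Its log2 fold change of -0.28 in each clone rests on the vector libraries, since it came to -0.06 in both clones without vector replicate C and to -0.56 in both without vector replicate B. EXD2, a nuclease, stood at 71.4% and 82.3% without overlap.

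The smaller role groups held further members near vector. Of the 4 ubiquitin ligase and chaperone genes, AREL1, a ubiquitin ligase, lay wholly below vector in both clones (71.3% and 76.3%). AHSA1, which stimulates the ATPase of HSP90, measured 47.9, 48.6 and 55.9 CPM in A1, 53.7, 44.4 and 54.7 in A4, and 53.0, 52.0 and 42.4 in vector. AHSA1 differed from vector by 0.05 ± 0.17 in each clone. PNMA1 (99.5% and 110%) and TTC9 (114% and 99.6%) also overlapped vector. All 5 cilia and axoneme genes were below 0 in both clones, and TTLL5 and FAM161B were wholly below vector in both. SLC39A9, a zinc transporter, measured 244, 248 and 253 CPM in A1, 201, 275 and 201 in A4, and 331, 324 and 301 in vector, with no overlap. Members of low, middle and high level had similar medians. The 26 lowest members (4.11 to 27.2 CPM) had medians of -0.29 and -0.22, the 27 middle ones -0.38 and -0.31, and the 26 highest (83.3 to 662 CPM) -0.32 and -0.31.

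The clones were also compared with each other. Since the members were chosen as low in both clones, this comparison is not independent of the choice and is given as a description. Clone A4 minus clone A1 had a median log2 difference of 0.07 over members, and of 0.04 over all genes tested. The sign of this median rests on clone A1 replicate A, since it was -0.01 without that library. With edgeR's quasi-likelihood test, 0 of 79 members passed an adjusted p of 0.05, where 0.161% of all genes tested did, and DESeq2 passed 0 (1.14% of genes). At an unadjusted p under 0.05 edgeR passed 5 members (6.33%, beside 6.63% of all genes tested), a count that came to 3 when vector replicate A was left out, to 2 when clone A4 replicate C was, and to 2 with counts taken without regard to strand. The 5 were LTBP2, NPC2, GALNT16, ZFYVE1 and ARG2. LTBP2 was higher in clone A4 by 0.63 ± 0.21 and NPC2 by 0.49 ± 0.17, with all 3 clone A4 libraries above all 3 of clone A1 for both genes. GALNT16 differed by 0.67 ± 0.30, or by 0.39 without clone A1 replicate A, and ZFYVE1 by 0.48 ± 0.22. For ARG2 the difference was -0.64 ± 0.24, lower in clone A4 and again with no overlap.

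Among the members with the largest spread between clones, SMOC1 differed by 0.75 ± 0.43 and BBOF1, a ciliary basal body protein, by 0.55 ± 0.30, both higher in clone A4. On the other side stood ACYP1 (-0.35 ± 0.27), PLEKHH1 (-0.30 ± 0.21) and MED6 (-0.28 ± 0.19). Single libraries moved several of these values. Without clone A1 replicate A the difference was -0.14 for ACYP1 and -0.10 for MED6, without clone A1 replicate B it was -0.10 for PLEKHH1, and without clone A1 replicate C it was 0.46 for SMOC1. Clone A4 lay wholly above clone A1 for 8 members, where 7.92% of all genes tested did, and wholly below it for ARG2 alone, where 5.72% did. The 8 included DCAF5, SMOC1, PNMA1, ABCD4, NPC2, LTBP2 and IRF2BPL. The number came to 14 without clone A1 replicate A and to 17 without clone A4 replicate C. A library fewer in a group makes separation easier, and the share over all genes was not taken for these counts. With a median standard error of 0.20 per member, a difference of that size between the clones was not detectable for a single gene.

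Gene pairs that start back to back offered a comparison within the segment. In 10 pairs, a member on the minus strand and one on the plus strand start within 1000 bases of each other. These pairs were chosen after the values were seen. The stretch between the starts is shown for 4 pairs whose starts leave a gap that the RefSeq promoter entry covers, because both genes of a pair are read outward from these bases. They are given on the plus strand of GRCh38.p14, with gene starts from GENCODE, at chr14:67360266-67360327, chr14:74713118-74713143, chr14:77320884-77320995 and chr14:77708024-77708070 in turn. Capitals again mark the ETS core.
ATP6V1D and EIF2S1: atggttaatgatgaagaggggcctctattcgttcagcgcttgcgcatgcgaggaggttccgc
AREL1 and FCF1: tttgCCGGAAgcagtatgtgaatgac
POMT2 and GSTZ1: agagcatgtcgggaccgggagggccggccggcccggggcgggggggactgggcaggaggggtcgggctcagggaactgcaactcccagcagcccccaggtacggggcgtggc
ALKBH1 and SLIRP: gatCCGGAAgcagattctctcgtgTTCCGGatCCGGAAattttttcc
The gap of ALKBH1 and SLIRP is 47 bases long and holds 3 ETS cores, and that of AREL1 and FCF1 is 26 bases long and holds 1. The other 2 gaps, of 62 and 112 bases, hold none. ALKBH1, a DNA and RNA demethylase, had log2 fold changes of -0.13 and -0.25 in clones A1 and A4, and SLIRP 0.10 and -0.06. AREL1 had -0.49 and -0.39, and FCF1, a ribosome biogenesis factor, -0.23 and -0.31. POMT2 had -0.76 and -0.57, and GSTZ1, an enzyme of tyrosine breakdown, -0.50 and -0.23. ATP6V1D and EIF2S1 differed by 0.33 in clone A1 and by 0.01 in clone A4. The fitted values of a pair lay up to 0.54 apart in clone A1 (ALDH6A1 and LIN52) and 0.35 in clone A4 (POMT2 and GSTZ1). The first were -0.81 ± 0.22 (SE) and -0.27 ± 0.19, and the second -0.57 ± 0.27 and -0.23 ± 0.31. Differences within pairs were not tested.

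Many members work in complexes whose other subunits are encoded elsewhere. From 10 such complexes or protein pairs, 12 members and 40 tested partners outside the segment were compared. Since the members were chosen as low in the clones and the partners were not, the comparison is given as a description. The members had medians of -0.29 in clone A1 and -0.26 in clone A4, and the partners -0.06 and -0.08. The partners spread more widely, from -2.11 to 1.04 in clone A1 and from -2.43 to 1.24 in clone A4. The 12 members ran from -0.99 to 0.10 and from -0.80 to -0.06. These ranges are not at like levels, since members had to reach 4 CPM and partners only had to be tested. The partner value of 1.24 in clone A4 was that of BATF3 (± 0.46, SE), at a mean of 2.03 CPM. FOSB, at -1.11 ± 1.03 in clone A1, had a mean of 0.36 CPM. With edgeR, 0 of the 40 partners passed an adjusted p of 0.05 in either clone, and 2 in each passed an unadjusted p under 0.05. Over all genes tested, the adjusted shares were 0.0646% in clone A1 and 0.115% in clone A4, and the unadjusted shares 7.51% and 5.25%. Of the 12 members, 5 lay wholly below vector in clone A1 and 5 in clone A4, and of the 40 partners 4 and 2. Over all genes tested 8.06% and 5.86% did. Wholly above vector lay 2 partners in clone A1 and 1 in clone A4, beside 6.18% and 6.2% of all genes tested, and 0 of the 12 members. TMED10 had log2 fold changes of -0.70 and -0.50, while TMED2, its main partner, had 0.06 and 0.03. NPC2 had -0.81 and -0.31, and NPC1, the membrane protein it hands cholesterol to, -0.06 and -0.07. SPTLC2 had -0.36 and -0.62, and SPTLC1, the subunit it pairs with, -0.04 and -0.10. EIF2B2 had -0.56 and -0.45, and the other 4 eIF2B subunits ranged from -0.17 to 0.51 in clone A1 and from -0.22 to 0.39 in clone A4. Partners of ATP6V1D in the V1 sector of the proton pump were below 0 for 6 of 7 in clone A1 and 7 of 7 in clone A4, among them ATP6V1A (-0.14, -0.32) beside ATP6V1D (-0.30, -0.16).

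**Figure D5:**
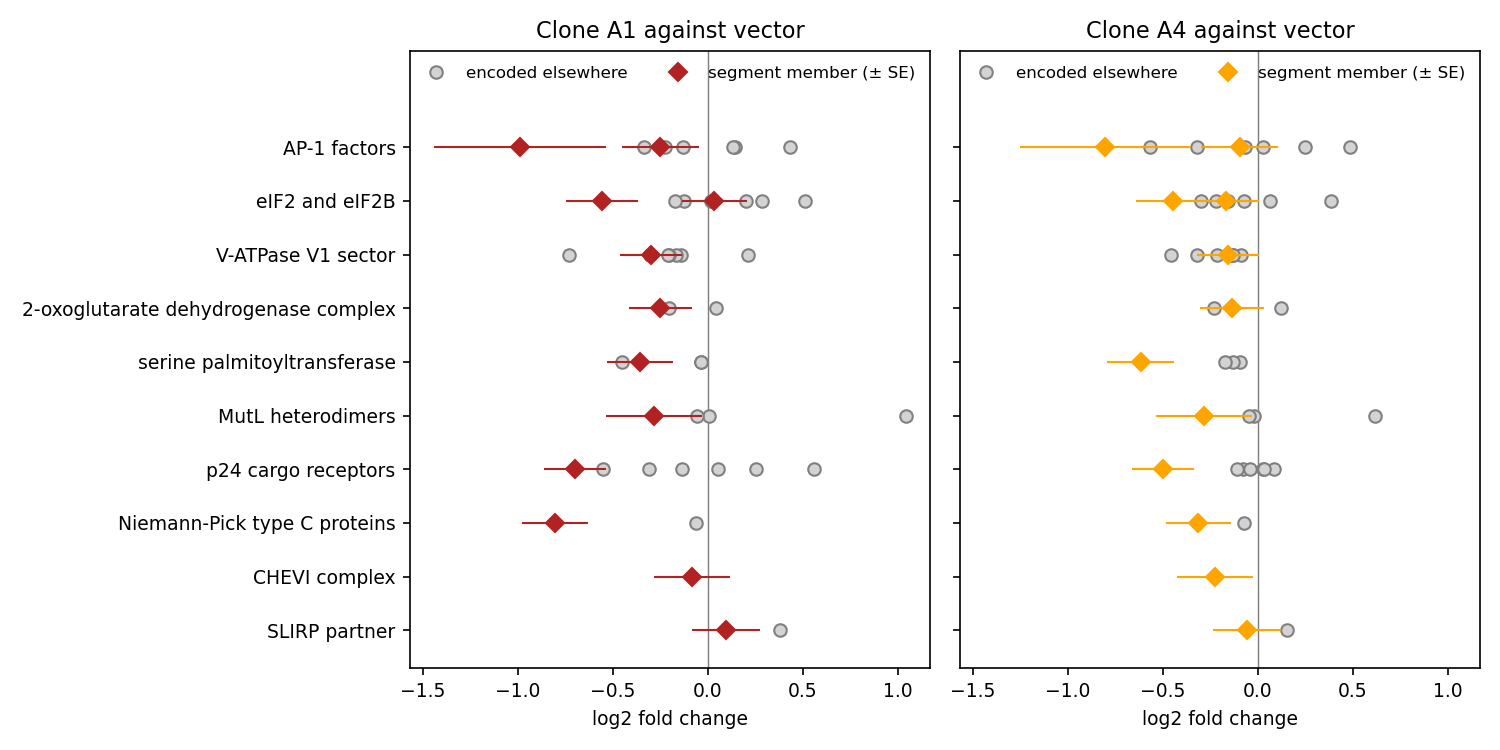
Log2 fold change of members (diamonds, with standard errors) and of partner genes encoded elsewhere (grey circles) in clone A1 and clone A4, by complex, for genes at or above 4 CPM. TMED10, NPC2 and EIF2B2 lie left of all their partners in both clones and SPTLC2 does so in clone A4, while ATP6V1D lies among its own. Members were chosen as low in these libraries and partners were not.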

How the data were processed

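The authors deposited 1 table of raw read counts per gene for each of the 9 libraries. Per the submitters' processing notes the aligner was STAR 2.7.1a and the genome GRCh38; the annotation is not given in the sources used here. Per the labels' protocols libraries were ribodepleted, while their molecule field names polyA RNA. The deposited count of the gene's own strand (column 3) was used, and each table's 4 summary lines, which hold reads not assigned to a gene (44.5% to 63.6% of reads), were not used. Of 60609 identifiers, 60295 matched GENCODE release 44 without version, which gave symbols and coordinates.

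Counts were fitted with edgeR 4.0.16 in R 4.3.3 (filterByExpr, TMM scaling, robust quasi-likelihood test, Benjamini-Hochberg adjustment over 21682 genes, threshold 0.05) with clone A1, clone A4 and vector as groups. CPM values are TMM-scaled, and log2 CPM uses a prior count of 2. The scripts were tested on simulated counts. The members, the gene lists and the window were chosen with earlier results of these data known. Members are named if among the 5 lowest or highest by the mean of both clones, the 4 with the largest difference between clones in each direction, the 2 with the highest CPM per kilobase, at an edge, or in a listed complex, and as the 4 most abundant of a role. Others were named after their values were seen. Alternatives were DESeq2 1.42.0, RLE scaling, scaling on genes outside chromosome 14, no filter, unstranded counts, a replicate block, other levels for membership, counts summed per clone and leaving out each library. P-values measure only the spread between these libraries. Values of a few genes, members among them, are not reported here.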

Additional observations from a re-analysis of the deposited data

Results flagged for a closer look

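Over the 6 libraries of the NCBP2 clones, 32 sets of values were searched for a library far from the rest, and chance alone would mark about 1 in 20 such sets. FOS and PNMA1 were marked, and in both the library was clone A1 replicate A. For FOS, clone A1 replicate A measured 1.3 CPM and the other 5 libraries 3.09 to 3.87 CPM, so the gap made up 0.697 of the range. For PNMA1 it measured 66.5 CPM and the other 5 81.2 to 86.2 CPM, a gap of 0.744 of the range. The same library held the lowest value for 34.6% of all genes tested, and its part in these 2 values was not tested.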

How the results depend on the processing

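The segment median stayed below 0 in clone A1 under all 17 alternatives (-0.36 to -0.28), in clone A4 under all 17 (-0.36 to -0.26) and in both clones together under all 18 (-0.32 to -0.26). Leaving out 1 library at a time gave -0.36 to -0.29 for clone A1, -0.36 to -0.26 for clone A4 (-0.36 without clone A4 replicate B) and -0.0094 to 0.10 for clone A4 minus clone A1 (-0.0094 without clone A1 replicate A). Members past the threshold in clone A1 numbered 0 with edgeR, 5 with DESeq2, 5 with no filter on low counts and 1 (LTBP2) with the replicate letter as a replicate block. In clone A4 they numbered 0 with edgeR, 1 with DESeq2 and 1 with no filter, and for both clones together 1 with DESeq2. The share of all genes that passed is given above for the main edgeR fit and DESeq2. It was not taken without the filter or with the block, so those counts have no background beside them. Same-letter libraries had correlations of -0.10 to 0.18 between their deviations, with 6 of 9 pairs over 0.1. Different-letter libraries ran from -0.27 to 0.22. The letters were therefore not taken as a paired design, and the replicate block altered no other count of members past the threshold. Clone A4 lay wholly below vector for 28 to 46 members when 1 library was left out, the highest without clone A4 replicate B. Clone A4 lay wholly above clone A1 for 6 to 17 members in the same way (17 when clone A4 replicate C was left out and 14 when clone A1 replicate A was) and for 3 with counts taken without regard to strand. Separation is easier to reach with a library fewer in a group, and the share over all genes was not taken for these settings. The limits are 2 clones, 3 libraries a group and a median standard error of 0.20 per member, with depths of 29234022 to 50554080 counts that cover counting error only.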
